A study of Mus musculus with 4 samples.

Results

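The genes described here are 10 genes of the mouse two-cell-like state: Tcstv1, Tcstv3, Zfp352, Usp17la, Usp17lb, Usp17lc, Usp17ld, Tdpoz3, Tdpoz4 and Gm4340. They were picked by symbol from a list that was chosen with earlier results of these data known. All 10 have a row among the 23420 gene rows of the count tables. RNA was sequenced from cells of the wild type mouse embryonic stem line E14, grown on gelatin without feeder cells in medium with leukemia inhibitory factor. The ATRA group had 2 libraries, taken after 24 h with all-trans retinoic acid (ATRA) at 1 µM, and the control group had 2 libraries taken at 0 h. ATRA and the extra 24 h of culture therefore varied together. One label on the ATRA samples gives the concentration in millimolar, and whether cells at 0 h were given the vehicle, dimethyl sulfoxide, is not stated. Separate cultures for the replicates are not stated either, so p-values may measure technical spread only.

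Two-cell-like cells are a rare and passing minority in cultures of mouse embryonic stem cells that transcribe genes normally active when the embryo begins its own transcription. Many of these genes are switched on by the transcription factor Dux, often from long terminal repeats of the endogenous retrovirus MERVL. Many of the genes sit in tandemly copied families, and retinoic acid has been reported to raise the share of such cells in culture. In bulk RNA, more cells in this state and more RNA per cell cannot be told apart. Transcripts of MERVL itself were not analysed here.

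The families are copies of one another, and their sequences show how closely. Usp17la, Usp17lb, Usp17lc and Usp17ld, which encode deubiquitinating enzymes of the DUB family, lie on chromosome 7 within 1612.9 kb. RefSeq promoter windows of 300 bases (250 before to 50 after the annotated start, GRCm38.p6) were found for 7 of the 10 genes. The following stretch of 171 bases from the windows of the 4 Usp17l genes aligns without gaps, and capitals mark the 18 positions where the copies are not all the same. The positions are chr7:104856845-104857015 on the plus strand for Usp17la, chr7:104842569-104842739 on the minus strand for Usp17lb, chr7:103416483-103416653 on the plus strand for Usp17lc and chr7:103252570-103252740 on the minus strand for Usp17ld.
Usp17la: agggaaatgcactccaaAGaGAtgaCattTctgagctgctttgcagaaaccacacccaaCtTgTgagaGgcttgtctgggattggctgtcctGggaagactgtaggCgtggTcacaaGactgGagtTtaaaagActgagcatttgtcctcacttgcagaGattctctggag
Usp17lb: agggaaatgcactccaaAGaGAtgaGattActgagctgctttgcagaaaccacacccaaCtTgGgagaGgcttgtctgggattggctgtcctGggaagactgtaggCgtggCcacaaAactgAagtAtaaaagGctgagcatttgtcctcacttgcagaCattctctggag
Usp17lc: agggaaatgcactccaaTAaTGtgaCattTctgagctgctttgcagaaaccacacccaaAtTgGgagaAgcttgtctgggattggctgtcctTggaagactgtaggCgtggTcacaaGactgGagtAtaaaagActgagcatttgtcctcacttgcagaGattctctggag
Usp17ld: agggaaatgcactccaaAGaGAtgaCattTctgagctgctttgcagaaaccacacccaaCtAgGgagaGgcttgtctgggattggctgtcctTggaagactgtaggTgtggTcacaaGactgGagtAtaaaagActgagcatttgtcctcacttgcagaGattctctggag
The copies were identical at 153 of the 171 positions (89.5%), and pairs differed at between 5 positions (Usp17la and Usp17ld) and 14 positions (Usp17lb and Usp17lc). The letters TATAAA on the gene's own strand were found from position 126 of the stretch in Usp17lb, Usp17lc and Usp17ld, where Usp17la reads TTTAAA. On either strand, TATAAA occurs in 13.6% of all 32851 RefSeq windows.

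Zfp352 is a C2H2 zinc finger gene known from 2-cell embryos, and its window (chr4:90218570-90218869, plus strand) is shown because of its repeated unit, GGACAACACAC, in capitals.
Zfp352: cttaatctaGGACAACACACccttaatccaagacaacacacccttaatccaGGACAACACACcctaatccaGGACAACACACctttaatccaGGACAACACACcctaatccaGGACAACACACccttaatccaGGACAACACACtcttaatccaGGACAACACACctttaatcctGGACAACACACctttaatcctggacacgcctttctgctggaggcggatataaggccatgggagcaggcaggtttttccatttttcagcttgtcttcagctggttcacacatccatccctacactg
The unit occurred 8 times, with starts 20 to 42 bases apart, and in no other RefSeq window on either strand (1 of 32851, 0.003%). The unit was chosen after the sequence was seen, and a run of 11 bases that overlaps it by all but its first base occurs as often. The half-site AGGTCA of nuclear receptors (16.3% of all windows, either strand) was found in 0 of the 7 windows. Its direct repeats with a spacing of 1, 2 or 5 bases, in a relaxed form that 0.609%, 0.472% and 0.323% of all windows hold, and the palindrome bound by Dux (0.0335% of windows) were also found in 0 of the 7. A missing match says only that these letters are not in these windows.

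How far reads can be assigned to single copies differed between the genes. For each gene, every 50-base window of its longest GENCODE M21 coding transcript was looked up in the transcripts of all other genes. As the read length is not known here, 50 bases is an illustration. Gm4340 shared 98.8% of its windows with other genes, and each of 6 copies (Gm20765, Gm21293, Gm21304, Gm21312, Gm6763 and Gm8764) held all of the shared ones. Tdpoz3 shared 66.2%, all of them with Gm4982, a gene that has no row in the count tables under that symbol. Usp17ld shared 51.1% and Usp17lc 44.7%, mostly with each other, and their transcripts were 97.9% identical over 1986 aligned bases. Tdpoz4 shared 41.2%, Tcstv3 31.4%, Usp17lb 21.8%, Usp17la 20.4%, Tcstv1 16.8% and Zfp352 7.09%. Copies in unannotated sequence are not covered by this count.

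**Figure D1:**
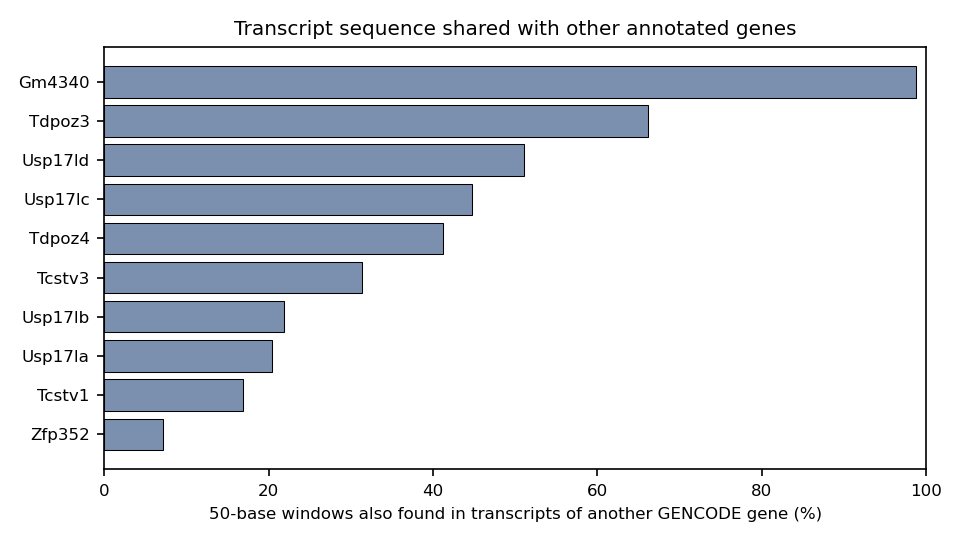
Share of 50-base windows (horizontal axis, percent) of each gene's longest GENCODE M21 coding transcript that also occur in transcripts of another annotated gene. Gm4340, at 98.8%, is almost wholly shared, and Zfp352, at 7.09%, is nearly unique.

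Counts in genes came to 13337972 and 11086233 in ATRA replicates 1 and 2 and to 31005634 and 21484812 in control replicates 1 and 2. The ATRA libraries were the shallower ones. Levels are given as CPM, counts scaled to a common total of reads, on library sizes scaled by TMM factors, and 3 counts stand for 0.212 and 0.309 CPM in the ATRA libraries and for 0.0940 and 0.134 CPM in the controls. Of the 10 genes listed as stem cell markers, 7 fell with ATRA after GC correction. That fit called 8.78% of all tested genes higher and 7.84% lower, the shares for every marker list here. The summed level of the 10 was 1787 and 1503 CPM in the ATRA libraries against 3830 and 3855 CPM in the controls. These sums and those of the lists below are CPM without GC correction, so sums and corrected calls can differ in direction. On the log2 scale, Pou5f1 of this list was at −2.61 uncorrected and −1.27 corrected, and the fibroblast marker Col1a1 at −1.86 and −0.15. Among the other cell types checked, 5 of 7 tested primitive endoderm markers rose after GC correction and 1 fell, with sums of 88.0 and 102 CPM in the ATRA libraries against 95.5 and 92.7 CPM in the controls. Of trophoblast markers 2 of 7 rose and 0 fell (65.6 and 71.3 CPM with ATRA against 68.0 and 65.1 CPM in the controls, with Prl3d1 at 0), and of fibroblast markers 2 of 7 rose and 0 fell (120.4 and 115 CPM with ATRA against 226 and 165 CPM in the controls). Of 6 germ cell markers, 2 rose, with sums of 399.99 and 540.3 CPM with ATRA against 60.9 and 59.4 CPM in the controls, and Stra8, itself a retinoic acid target, made up 308 and 375 CPM of the ATRA sums. Without GC correction, 0 of the stem cell, primitive endoderm, trophoblast and fibroblast markers passed, and 1 germ cell marker was called higher. The part of these shifts in the results for the listed genes was not tested.

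Over all genes, fold changes followed the GC content of the transcript (Spearman's rho −0.75 over 14146 tested genes, which are not independent replicates). Within the ATRA group the libraries parted by GC content too: in the decile of lowest GC, replicate 2 was higher than replicate 1 by a median of 0.85 on the log2 scale, and in the highest decile the median was −1.305. The 9 tested genes of the list have a GC content of 44.3% to 50.1%. The 4171 tested genes in that band had a median log2 fold change of 0.38, and of 0.03 in a fit that takes out the GC trend of each library. Both values are therefore given for each gene. The uncorrected fit called 62 genes higher (0.435% of 14256 tested) and 24 lower (0.168%), and the GC-corrected fit called 1252 higher (8.78%) and 1118 lower (7.84%), each at a Benjamini-Hochberg adjusted p under 0.05 in the quasi-likelihood test of edgeR. The retinoic acid targets served as a check of the treatment: uncorrected, 8 of 12 were called higher and 0 lower, and 11 and 0 after GC correction. Rarb, which encodes a retinoic acid receptor, had 33.9 and 43.4 CPM with ATRA against 0.125 and 0.223 CPM in the controls.

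All 9 genes with counts had positive log2 fold changes, as had 49.5% of all genes uncorrected and 51.2% corrected. They had higher mean levels in the ATRA libraries than in the controls, with fitted ratios of 1.56 (Tdpoz4) to 4.57 (Tdpoz3), and Gm4340 had 0 counts in every library. For 8 of the 9, both ATRA libraries lay above both controls, an order that 40% of all tested genes showed. Tcstv1, Tcstv3, Zfp352 and Tdpoz3 reached the level of the expression filter in both ATRA libraries but not in both controls. They were thus tested through the group where they are high. Their direction adds no independent support to these counts or to the median given below. Uncorrected, 0 of the 9 passed the test, although 7 had an unadjusted p under 0.05 with a higher level (18.2% of all genes; 5 and 19.7% after GC correction), with edgeR adjusted p from 0.0785 to 0.422. After GC correction Usp17lb and Usp17ld rose and 0 fell, in a fit that called 8.78% of all tested genes higher and 7.84% lower. As copies of the same family with shared windows, they are not independent calls. The median log2 fold change over the 9 genes was 1.51 uncorrected and 1.10 corrected, beside −0.02 and 0.01 over all genes tested. DESeq2's Wald test called 3 of them higher (Usp17la, Usp17lb and Usp17ld) and 0 lower, where it called 12.5% of all genes higher and 18% lower.

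**Figure D2:**
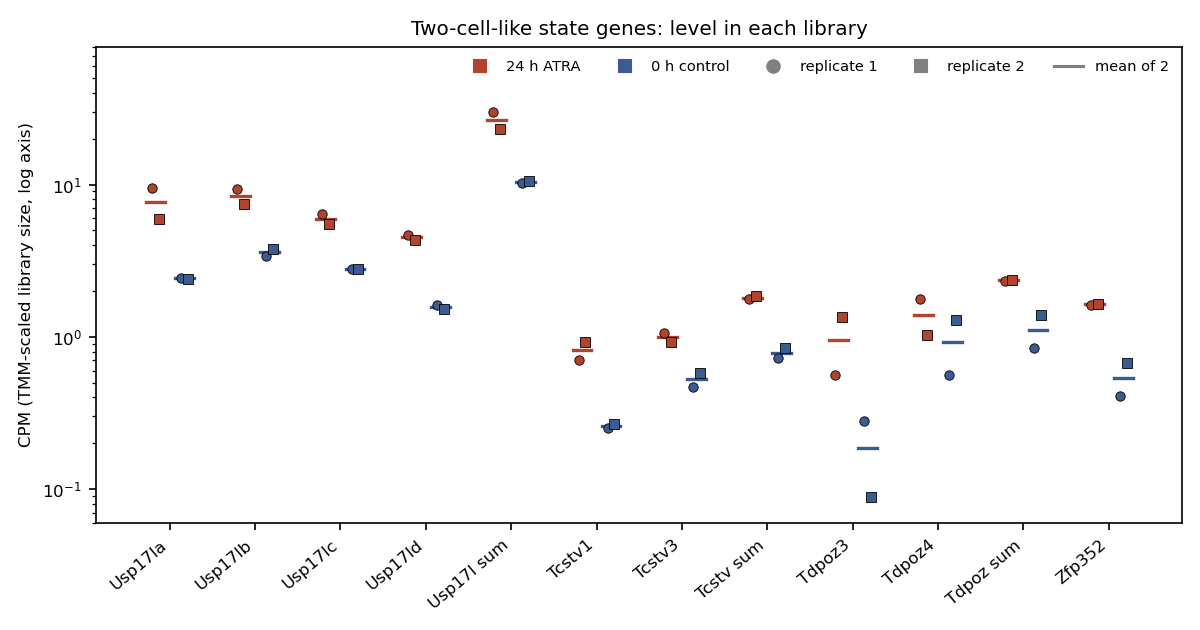
Level of each gene and of each summed family (vertical axis, CPM on a log scale) in the 2 libraries with 24 h ATRA, left of each pair, and the 2 control libraries at 0 h; bars are means of 2. Both ATRA libraries lie above both controls for every item but Tdpoz4, and Gm4340, at 0 in all libraries, is not drawn.

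The Usp17l genes carried most of the list's reads. Usp17la (Dub1), first known as a cytokine-induced gene of blood cells, lies on chromosome 7 from 104857009 to 104862667, plus strand (GENCODE M21, GRCm38), with 3 exons. It had 134 and 58 counts in the ATRA libraries against 78 and 54 in the controls, or 9.47 and 5.98 CPM with ATRA against 2.44 and 2.41 CPM in the controls. The ATRA libraries were apart from each other and both above the controls. Its log2 fold change was 1.68 ± 0.40 (SE, n = 2 each, edgeR adjusted p = 0.0785), and 1.40 ± 0.36 (edgeR adjusted p = 0.0544) after GC correction. Leaving out ATRA replicate 1 gave 0.87 corrected, and leaving out ATRA replicate 2 gave 1.78.

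Usp17lb (Dub1a) lies on the same chromosome from 104840257 to 104842603, minus strand, 14.4 kb from Usp17la. It had 132 and 72 counts with ATRA against 108 and 85 in the controls, or 9.33 and 7.43 CPM with ATRA against 3.39 and 3.79 CPM in the controls. Both ATRA libraries lay above both controls, with no overlap. It rose by 1.22 ± 0.24 on the log2 scale after GC correction (edgeR adjusted p = 0.0316), with an uncorrected value of 1.23 ± 0.35 (edgeR adjusted p = 0.0867). With any single library left out, the corrected value ranged from 1.07 to 1.37.

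Usp17lc (Dub2), known from lymphocytes stimulated with cytokine, lies from 103415072 to 103419880 on the plus strand. It had 90 and 53 counts with ATRA against 89 and 63 in the controls, or 6.36 and 5.47 CPM with ATRA against 2.79 and 2.81 CPM in the controls, without overlap. Its log2 fold change was 1.08 ± 0.35 (edgeR adjusted p = 0.0940) and 0.96 ± 0.25 (edgeR adjusted p = 0.0568) after GC correction. Usp17ld (Dub2a), 162.6 kb away on the minus strand from 103249737 to 103252505, had 66 and 42 counts with ATRA against 52 and 34 in the controls. Its levels were 4.67 and 4.33 CPM with ATRA against 1.63 and 1.51 CPM in the controls, with both pairs close together and no overlap. It rose by 1.53 ± 0.27 after GC correction (edgeR adjusted p = 0.0272), with 1.51 ± 0.37 uncorrected (edgeR adjusted p = 0.0785). Its corrected value ranged from 1.46 to 1.58 with any single library left out.

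Summed over the 4 copies, the Usp17l genes had 422 and 225 counts with ATRA against 327 and 236 in the controls. These are 29.8 and 23.2 CPM with ATRA against 10.25 and 10.5 CPM in the controls, so the controls were almost equal and both ATRA libraries lay well above them. The sum rose by 1.24 ± 0.20 on the log2 scale after GC correction (95% interval 0.74 to 1.74, edgeR adjusted p = 0.0221). Uncorrected it was 1.35 ± 0.32 (0.57 to 2.14) with an edgeR adjusted p of 0.0783. Whether the corrected call held depended on the library left out. Without control replicate 1 the corrected value was 1.22, and without control replicate 2 it was 1.24. Without ATRA replicate 1 the corrected value was 1.02, and without ATRA replicate 2 it was 1.45. Each such fit has 1 library in one group, which is assumed to vary like the pair in the other. The pairs differ in spread: the chi-square per degree of freedom between replicates was 76.9 in the ATRA group and 9.65 in the control group. The p-values of these fits therefore follow which pair is left, and they are no check of the call. Usp17lb supplied 31.3% and 32.0% of the sum with ATRA against 33.0% and 36.0% in the controls, and Usp17la 31.8% and 25.8% with ATRA against 23.9% and 22.9% in the controls. Usp17lc supplied 21.3% and 23.6% with ATRA against 27.2% and 26.7%, and Usp17ld 15.6% and 18.7% against 15.9% and 14.4%. With Usp17le, a further gene of the family (Dub3) added after the data were seen, the corrected log2 fold change was 1.40 (edgeR adjusted p = 0.0134). Uncorrected it was 1.45 (edgeR adjusted p = 0.0762).

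Tcstv1 and Tcstv3 encode small proteins of the 2-cell-stage variable group and have been linked to telomere maintenance in mouse stem cells. They lie on chromosome 13, Tcstv1 from 119893388 to 119894785 on the minus strand and Tcstv3 from 120316878 to 120318178 on the plus strand, 422.1 kb apart, and their transcripts were 90.2% identical over 743 aligned bases. Tcstv1 had 10 and 9 counts with ATRA against 8 and 6 in the controls, or 0.707 and 0.928 CPM with ATRA against 0.251 and 0.267 CPM in the controls. Tcstv3 had 15 and 9 counts with ATRA against 15 and 13 in the controls, or 1.06 and 0.928 CPM with ATRA against 0.470 and 0.579 CPM in the controls. For both genes the ATRA libraries lay above the controls, on few reads. The log2 fold change of Tcstv1 was 1.62 ± 0.55 (1.10 corrected, edgeR adjusted p = 0.0976 and 0.162) and that of Tcstv3 0.93 ± 0.48 (0.78 corrected, edgeR adjusted p = 0.185 and 0.240). Their sum, 25 and 18 counts with ATRA against 23 and 19 in the controls, had levels of 1.77 and 1.86 CPM with ATRA against 0.721 and 0.846 CPM in the controls. It did not pass, at 1.21 (95% interval 0.15 to 2.26, edgeR adjusted p = 0.104) and 0.91 after GC correction (−0.0032 to 1.83, edgeR adjusted p = 0.132).

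Zfp352, on chromosome 4 from 90218820 to 90225702, plus strand, has 2 exons and is the gene of the list whose reads are least shared. It had 23 and 16 counts with ATRA against 13 and 15 in the controls, or 1.63 and 1.65 CPM with ATRA against 0.407 and 0.668 CPM in the controls. The ATRA libraries were almost equal and both above the controls. Its log2 fold change was 1.62 ± 0.49 (edgeR adjusted p = 0.0895). It has the lowest GC content of the 9 tested genes, 44.3%, and its fold change moved most under the correction, to 0.99 ± 0.46 (95% interval −0.17 to 2.15, edgeR adjusted p = 0.178).

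Tdpoz3 and Tdpoz4 encode proteins with a TRAF-type and a POZ domain, the arrangement of the ubiquitin ligase adaptor Spop. They are single-exon genes on the plus strand of chromosome 3, Tdpoz4 from 93796398 to 93797510 and Tdpoz3 from 93826020 to 93827117, 28.5 kb apart. Tdpoz3 had 8 and 13 counts with ATRA against 9 and 2 in the controls, or 0.565 and 1.34 CPM with ATRA against 0.282 and 0.0891 CPM in the controls, so 1 control library was under the floor of 3 counts. Its log2 fold change, 2.19 ± 0.77 (1.91 ± 0.73 corrected), had the widest interval of the list, with edgeR adjusted p of 0.104 and 0.119. The corrected value ran from 1.34 without ATRA replicate 2 to 3.01 without control replicate 1. Tdpoz4 had 25 and 10 counts with ATRA against 18 and 29 in the controls, or 1.77 and 1.03 CPM with ATRA against 0.564 and 1.29 CPM in the controls, and was the one gene whose groups overlapped. Its log2 fold change was 0.64 ± 0.60 (edgeR adjusted p = 0.422) and 0.46 ± 0.58 corrected, with an interval from −0.98 to 1.91. Corrected, it was −0.058 without control replicate 1 and −0.093 without ATRA replicate 1. Summed, the pair had 33 and 23 counts with ATRA against 27 and 31 in the controls, or 2.33 and 2.37 CPM with ATRA against 0.846 and 1.38 CPM in the controls. The sum did not pass, at 1.09 (95% interval −0.02 to 2.20, edgeR adjusted p = 0.128) and 0.88 corrected (−0.09 to 1.84, edgeR adjusted p = 0.158).

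Gm4340, a protein-coding gene on chromosome 10 from 104194042 to 104196522, plus strand, had 0 counts in all 4 libraries. A count of 0 allows up to 0.212 and 0.309 CPM in the ATRA libraries and 0.0940 and 0.134 CPM in the controls. Its 6 near-identical copies were also at 0 in every library, so the sum of the 7 rows was 0. The count tables report 0 reads as aligned to more than 1 place. Whether reads of these copies were removed before counting was not tested.

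**Figure D3:**
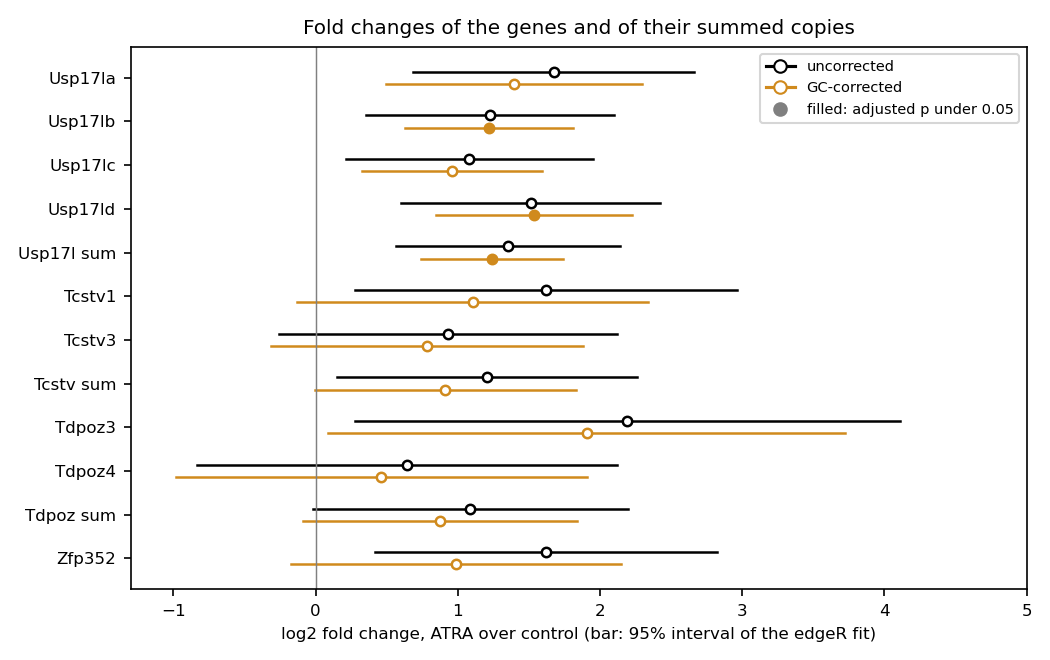
Log2 fold change of ATRA over control (horizontal axis) with 95% intervals from the edgeR fit (n = 2 against 2), uncorrected in black and GC-corrected in orange; filled points have an adjusted p under 0.05. The Usp17l sum, at 1.24 corrected, has the narrowest interval, and Tdpoz3, at 1.91, the widest.

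Per kilobase of the longest transcript, Usp17lb had the highest level in both groups, 5.38 ± 0.86 CPM per kb with ATRA and 2.30 ± 0.18 CPM per kb in the controls (mean ± SD, n = 2 each). Usp17la (2.91 ± 0.93), Usp17lc (2.46 ± 0.26) and Usp17ld (2.26 ± 0.12) followed with ATRA and did not differ beyond their spread. In the controls Usp17lc was at 1.16 ± 0.0048, Usp17la at 0.913 ± 0.011 and Usp17ld at 0.791 ± 0.041 CPM per kb, with Tdpoz4 (0.834 ± 0.462) among them. An SD of 2 libraries can lie far below counting error. The control values of these Usp17l genes rest on 34 to 89 counts a library, so the SDs do not establish their order. Tcstv3 was at 1.28 ± 0.12 CPM per kb with ATRA and 0.673 ± 0.099 in the controls, and Tdpoz4 was at 1.26 ± 0.47 with ATRA. Gm4340 was at 0, and the 3 lowest genes with counts were Tdpoz3 (0.868 ± 0.499 with ATRA, 0.169 ± 0.124 in the controls), Zfp352 (0.720 ± 0.0076 with ATRA, 0.236 ± 0.081 in the controls) and Tcstv1 (0.639 ± 0.122 with ATRA, 0.202 ± 0.0091 in the controls), which did not differ beyond their spread in the controls. This order describes reads as assigned, and the part of shared windows in it was not tested.

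A further 46 genes were listed as belonging to the two-cell-like state, of which 41 have rows, 6 are at 0 in all libraries and 28 were tested. Uncorrected, 0 of the 28 passed, and after GC correction 11 rose and 0 fell (8.78% and 7.84% of all genes). In 23 both ATRA libraries lay above both controls and in 1 both lay below, against 40% and 41.5% of all genes. Their median log2 fold change was 1.67, and 1.04 after correction. Some of the 28, among them B020004J07Rik, Pramef6, AF067061 and Gm13078, reached the level of the expression filter in both ATRA libraries but not in both controls. Such genes were tested through the group where they are high, so they add no independent support to these counts and medians. With no count filter 35 genes were fitted, with an uncorrected median of 1.59. Calcoco2, an autophagy receptor gene and the most abundant, had 231 and 284 CPM with ATRA against 66.0 and 72.7 CPM in the controls. It rose by 1.87 after correction (edgeR adjusted p = 0.00494), beside 1.89 uncorrected (0.0585). Gm12794 had 16.9 and 23.8 CPM with ATRA against 3.605 and 3.70 CPM in the controls, and rose by 1.91 corrected (edgeR adjusted p = 0.00831), beside 2.48 uncorrected (0.0596).

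The genes Gm2016, Gm2022, Gm5662 and Gm8300 are copies that share 81.3%, 97.2%, 77.9% and 26.6% of their windows with other genes. Their sum was 2142 and 2738 counts with ATRA against 1500 and 1022 counts in the controls, or 151 and 282 CPM with ATRA against 47.0 and 45.5 CPM in the controls. The ATRA libraries were far apart from each other and both well above the controls. Gm2022, with 22.1 and 41.5 CPM with ATRA against 5.64 and 5.30 CPM in the controls, rose by 1.48 after GC correction (edgeR adjusted p = 0.0102), beside 2.53 uncorrected (0.0708). Gm8300, with 27.8 and 56.0 CPM with ATRA against 8.49 and 7.71 CPM in the controls, rose by 1.26 corrected (edgeR adjusted p = 0.0125), beside 2.37 uncorrected (0.0720). These genes have GC contents of 37.6% (Gm5662) to 38.9% (Gm2022), below that of the 9 tested genes above. Whichever single library was left out, the corrected median of the further two-cell-like genes stayed between 0.99 and 1.16.

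**Figure D4:**
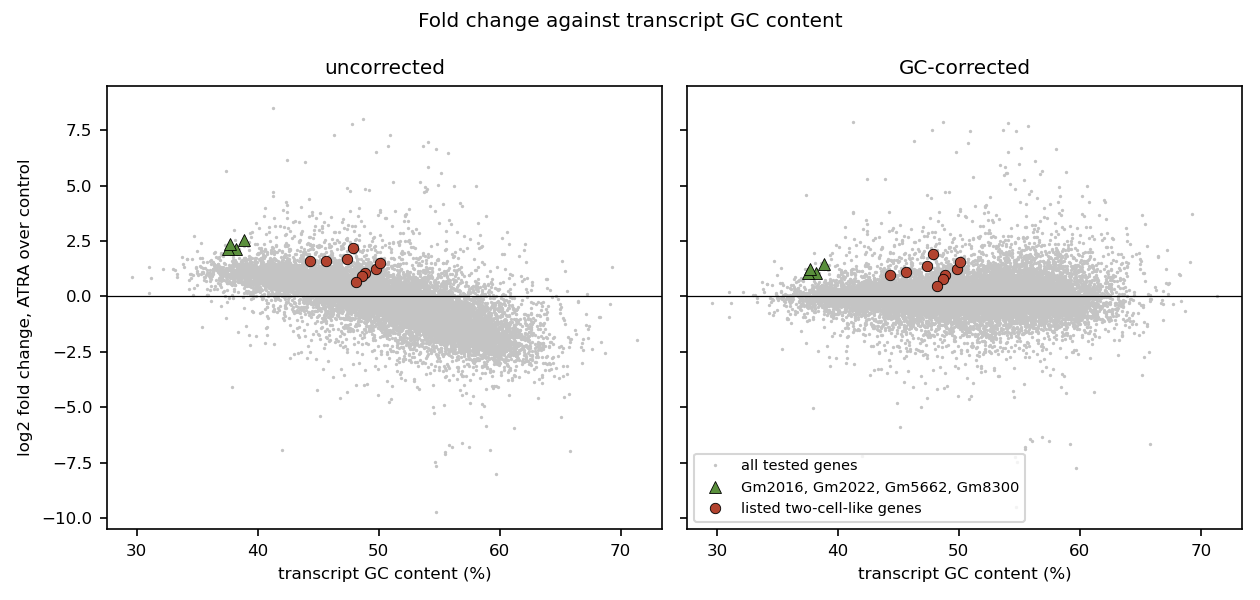
Log2 fold change of ATRA over control (vertical axes) against transcript GC content in percent (horizontal axes) for all tested genes with a GC value, uncorrected on the left and GC-corrected on the right. The 9 listed genes lie between 44.3% and 50.1% GC, and all are above 0 in both fits; triangles are Gm2016, Gm2022, Gm5662 and Gm8300, described with the further two-cell-like genes.

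Regulators of the state did not move one way. Of 14 genes listed as activators, 13 have rows and 10 were tested: uncorrected 0 passed, and after GC correction 2 rose and 4 fell (8.78% and 7.84% of all genes), with a median of −0.73 uncorrected and −0.42 corrected. The corrected median stayed below 0 whichever single library was left out, from −0.63 to −0.23. The row named Dux, for which no GC content was found, had 9 and 3 counts with ATRA against 20 and 6 in the controls, or 0.636 and 0.309 CPM with ATRA against 0.627 and 0.267 CPM in the controls. Its groups overlapped and it did not pass (0.09 ± 0.70 on the log2 scale, edgeR adjusted p = 0.924). Dppa2, a DNA-binding protein gene that acts upstream of Dux in mouse stem cells, had 174 and 243 CPM with ATRA against 78.0 and 87.6 CPM in the controls, and rose by 0.58 corrected (edgeR adjusted p = 0.0303), beside 1.33 uncorrected (0.0778). Its partner Dppa4, named after its values were seen, had 98.7 and 83.6 CPM with ATRA against 97.7 and 107 CPM in the controls and did not pass. The orphan nuclear receptor gene Nr5a2 fell by 2.16 corrected (edgeR adjusted p = 0.0103), beside −1.43 uncorrected (0.0721), at 21.2 and 21.1 CPM with ATRA against 55.8 and 58.4 CPM in the controls. The zinc finger genes Klf5 (−1.77 corrected, edgeR adjusted p = 0.0307) and Prdm1 (−1.01, edgeR adjusted p = 0.0292) fell too, beside −1.55 and −0.57 uncorrected (edgeR adjusted p = 0.0785 and 0.206). The most abundant, the tumor suppressor gene Trp53, had 258 and 101 CPM with ATRA against 464 and 413 CPM in the controls, and did not pass (−0.60 corrected and −1.29 uncorrected, edgeR adjusted p = 0.0969 and 0.109).

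Of 35 genes listed as repressors, 34 were tested. Uncorrected 0 passed, and after GC correction Rcor1 and Lin28a rose and Zfp42, Max and L3mbtl2 fell. These 2 higher and 3 lower of 34 are near the shares over all genes, 8.78% and 7.84%, and the list's median was −0.28 uncorrected and −0.06 corrected. Leaving out any single library kept the corrected median between −0.16 and −0.04. Zfp42 (Rex1), a zinc finger gene of naive stem cells whose product binds related retroviral elements, had 145 and 151 CPM with ATRA against 574 and 562 CPM in the controls. It fell by 2.36 corrected (edgeR adjusted p = 0.00242), beside −1.94 uncorrected (0.0514). Max, which encodes the dimerization partner of Myc, fell by 1.04 corrected (edgeR adjusted p = 0.0316), beside −1.001 uncorrected (0.0896). L3mbtl2, a Polycomb group gene, fell by 0.94 corrected (edgeR adjusted p = 0.0387), beside −1.85 uncorrected (0.0866). L3mbtl2 had 90.3 and 31.2 CPM with ATRA against 236 and 204 CPM in the controls. Rcor1, which encodes a corepressor of the demethylase Kdm1a, rose by 0.66 corrected (edgeR adjusted p = 0.0290), beside 0.86 uncorrected (0.0926). Ncl, the gene of nucleolin and the most abundant of the list, had 4125 and 7006 CPM with ATRA against 3699 and 3726 CPM in the controls, and was at 0.58 uncorrected (edgeR adjusted p = 0.238) and −0.26 corrected (0.101). Trim28, the corepressor of retroviral elements, named after its values were seen, had 1420 and 560 CPM with ATRA against 2703 and 2770 CPM in the controls, and was at −1.47 uncorrected (edgeR adjusted p = 0.0951) and at 0.19 corrected (0.320).

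**Figure D5:**
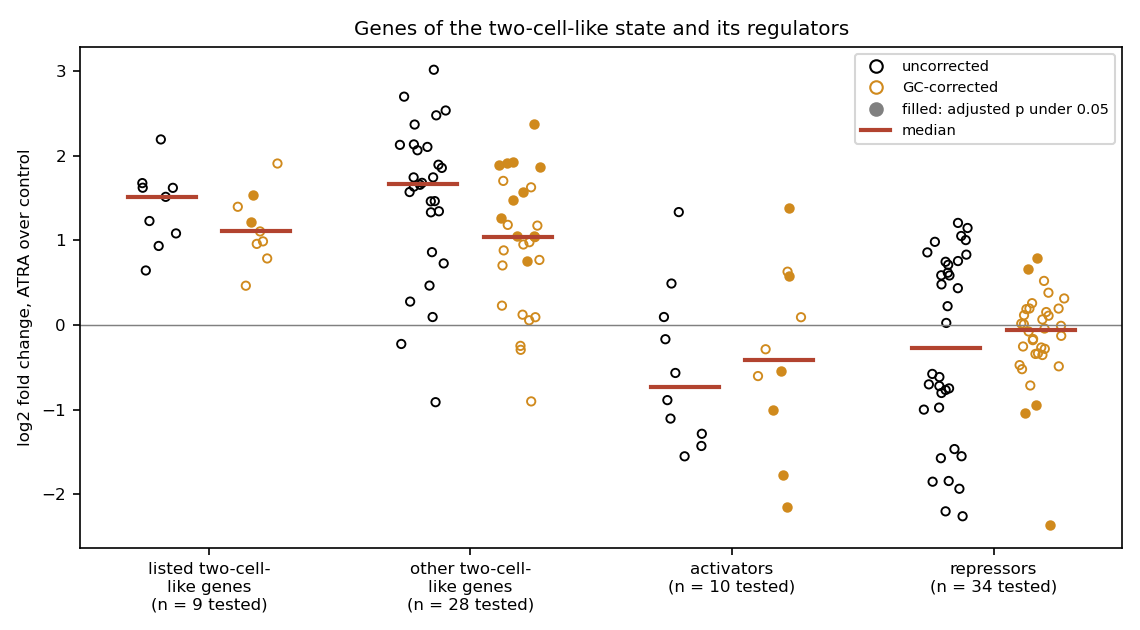
Log2 fold change of ATRA over control (vertical axis) for the 9 tested genes of the list, 28 other genes of the two-cell-like state, 10 activators and 34 repressors, uncorrected in black and GC-corrected in orange, with filled points at an adjusted p under 0.05 and red bars for medians. The medians of the listed and the other two-cell-like genes, 1.10 and 1.04 corrected, lie above those of the activators (−0.42) and repressors (−0.06).

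The genes most alike in pattern were found by the Euclidean distance between log2 CPM profiles over the 4 libraries, each centred on its mean. For the Usp17l sum they were Msx2 (distance 0.08525), Dcaf12l2 (0.0977) and Stox1 (0.160). Zfp352 was closest to Iqck (0.0654), Ccdc79 (0.0906) and Rgs10 (0.110). For the Tcstv sum they were Has2as (0.0476), an antisense gene whose reads cannot be told from those of its partner, Gm5176 (0.0733) and Ccdc177 (0.0748), and for the Tdpoz sum Chst3 (0.103), Hal (0.1155) and Olfr1372-ps1 (0.1935).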

How the data were processed

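RNA-seq count tables of 4 libraries, 2 with ATRA for 24 h and 2 at 0 h, were read as the authors deposited them: whole-number counts of reads per gene symbol. Tools listed by the submitters' processing notes, without role or order, are HTSeq 0.6.0, TopHat2 2.0.7, Cuffdiff 2.0.2 and Cufflinks 2.0.2, and the build is mm10. The annotation, the strand setting and the read length are not stated. Without a stated strand setting, overlapping and antisense genes cannot be told apart. Lines that name no gene did not enter library sizes. Reads in no feature made up 63.4% to 66.2% of the counts in each table, and ambiguous reads 0.158% to 0.254%.

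Genes passing edgeR's default expression filter (14256) were tested in R 4.3.3 with edgeR 4.0.16 (TMM scaling, robust quasi-likelihood fit, Benjamini-Hochberg adjustment, threshold 0.05). Only the 2 groups entered. Fold changes are ATRA over control. In the GC-corrected fit, each library's spline trend (5 degrees of freedom) of log2 CPM against transcript GC content entered as an offset. Such an offset also removes any biological change that follows GC content. Family sums replaced the rows of their members in a copy of the counts, which was fitted separately. The alternatives were DESeq2 1.42.0, its size factors, no filter, a replicate block, leaving out each library, the robust option off and further family rows, the last 2 and the left-out libraries with GC correction being added after the data were seen. The fitting procedure was tested on simulated data. An exact permutation test of 2 against 2 cannot give a p under 0.333.

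Symbols were matched to GENCODE M21 (GRCm38): 21777 directly, 1278 by an older symbol and 365 not at all. Members and lists were chosen with earlier results of these data known. Genes named are all members, up to 4 called genes of smallest p in each list or else the most abundant, and the 3 tested genes with the most similar profile. Other names were chosen after their values were seen. Counting error alone is covered by the limits given for counts of 0.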

Additional observations from a re-analysis of the deposited data

Results flagged for a closer look

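Reads assigned to no annotated gene feature, which enter none of the comparisons, made up 64.7% and 66.2% of the counts in ATRA replicates 1 and 2, against 63.4% and 63.9% in control replicates 1 and 2. Both ATRA libraries lay above both controls, and the content of these reads was not analysed here.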

How the results depend on the processing

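Over all genes, 86 were called (62 higher, 24 lower). Calls numbered 156 with DESeq2 size factors (101 higher, 55 lower), 4350 with DESeq2's Wald test (1777, 2573), 2807 with no count filter (816, 1991) and 2370 with GC correction (1252, 1118). With a replicate block there were 4212 (1237, 2975), or 2955 with GC correction. Leaving out one library gave 82 to 10952 calls, and 53 to 7431 with GC correction (5332 without ATRA replicate 2). The replicate numbers share no stated source. Deviations of same-numbered libraries correlated at 0.18 over 14256 genes, with 2 pairs, so the numbers were not taken as pairing.

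Of the listed genes, 0 were called, 3 with DESeq2's Wald test, 2 with no count filter, 2 with GC correction, 3 with the replicate block, 3 with the block and GC correction, and 0 to 5 when one library was left out, with or without GC correction (4 without ATRA replicate 2). Without one control library 0 passed, and the spread then comes from the ATRA pair alone. Without one ATRA library it comes from the tighter control pair, so these counts follow which pair is left. Calls over all genes moved with the setting too. DESeq2's Wald test called 1777 genes higher (12.5%), the fit with no count filter 816 and the GC-corrected fit 1252 (8.78%). The replicate block called 1237 of 14256 tested genes higher, and 1493 with GC correction. Tdpoz3 passed with the replicate block (2.17, edgeR adjusted p = 0.0404), and its value was 2.71 without ATRA replicate 1.

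The Usp17l sum (log2 fold change 1.35, edgeR adjusted p = 0.0783) did not pass in the main fit. Nor did it pass with DESeq2 size factors (1.38, 0.0660), with the robust option off (1.35, 0.0704) or with Usp17le uncorrected (1.45, 0.0762). It passed at 1.38 with DESeq2's Wald test (adjusted p = 0.00538). In edgeR it passed at 1.30 with no count filter (adjusted p = 0.0436), 1.24 with GC correction (0.0221) and 1.34 with the replicate block (0.0223). It also passed at 1.23 with the block and GC correction (0.00744) and 1.40 with Usp17le and GC correction (0.0134). Without one library it ranged from 1.15 to 1.54, and from 1.02 to 1.45 with GC correction. Tdpoz4 turned to −0.058 without control replicate 1 and to −0.093 without ATRA replicate 1, both with GC correction. The other listed genes and sums kept a positive direction in every alternative run. The cause of these shifts was not tested. Depth limits Tcstv1, Tcstv3, Zfp352, Tdpoz3 and Tdpoz4, each with under 30 counts in any library.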
